A study of Schmidtea mediterranea with 32 samples.

Results

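A set of 27 transcript contigs of the planarian flatworm Schmidtea mediterranea was selected on measured values: each was more abundant after RNAi against nhr-1 than after control RNAi at both 6 and 8 feedings. They are 27 of the 93783 sequences whose identifiers start with SmedSXL, a prefix read here, from the name alone, as a transcript assembly of the sexual strain. Level was CPM, the count of a contig per 1000000 counts on all SmedSXL contigs except SmedSXL_088910, which took up to 47.5% of the SmedSXL counts in a library. The ratio was the mean CPM of the nhr-1 RNAi libraries over that of the controls, with 0.1 CPM added to each mean. A contig was kept with a mean of at least 5 CPM under nhr-1 RNAi at 8 feedings, a ratio of at least 1.5 at 6 feedings and of at least 2 at 8 feedings, and every knock-down library above every control at both times. Its control mean at 8 feedings also had to stay under 3 times that at 4 feedings. The level left 13941 contigs, the ratio at 6 feedings 654, the ratio at 8 feedings 98, the separation at 6 feedings 31 and the separation at 8 feedings 27, and the control condition removed none of these.

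Nuclear hormone receptors, the class that the name nhr-1 denotes, are transcription factors, many of which are switched by a small lipid-soluble ligand. Sexual planarians are hermaphrodites that carry testes, ovaries and yolk-producing glands beside the tissues they share with asexual animals, and nhr-1 is known in this species for its part in the growth and upkeep of that reproductive system. In RNAi, double-stranded RNA of a gene lowers its transcript, and in planarians it is commonly given with food.

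The libraries were made from poly(A) RNA of whole animals labelled Sexual S2F2, and no other genotype is named. The groups were nhr-1 RNAi and control RNAi, labelled UNC, after 4, 6, 8 and 11 feedings. Each group held 4 libraries except the control at 6 feedings, which held 3, and 1 more control labelled 7 feedings was kept apart. Each of the 8 groups had 1 library named 1, and the other names start with s, which the labels do not explain. At 11 feedings the titles and the descriptions of the controls disagree on the s numbers, and the titles were followed here. The labels do not say that libraries of a group came from separate animals or cultures, so p-values measure the spread between these libraries, which may be technical.

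Depth was 3094065 to 7714361 counts on SmedSXL contigs without SmedSXL_088910. That contig took 6.77% to 47.5% of the SmedSXL counts and stood highest in controls s2 and s3 at 11 feedings (45.6% and 47.5%) and in knock-down library s2 at 4 feedings (36.9%). None of the 27 contigs was at 0 in any of the 32 libraries, and the lowest single count was 2. In RNA of whole animals, more cells of a type and more RNA per cell cannot be told apart. The identifiers carry no gene names, so the transcript of nhr-1 itself, tissue markers and the functions of the 27 contigs were not analysed here.

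The contigs were 218 to 2071 bases long with a median of 845 bases, against a median of 1494 bases over the 13941 contigs that passed the level. At 8 feedings their mean level under nhr-1 RNAi ran, per kilobase of contig, from 5.27 CPM for SmedSXL_080945 to 4221 CPM for SmedSXL_012259. SmedSXL_017081, SmedSXL_017082 and SmedSXL_017083 have 2064, 2071 and 2064 bases, and their counts moved as 1 (r above 0.99 over 32 libraries, totals within 5%). These 3 may be copies of 1 transcript and their values are uncertain as separate contigs. A SmedASXL row with the same property existed for 15 of the 27, so reads of these may have been counted on more than 1 sequence.

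Under nhr-1 RNAi the median of the 27 contigs was near control level at 4 feedings and higher at each later time. Single contigs varied at 4 feedings, from a ratio of 0.464 for SmedSXL_012989 to 1.93 for SmedSXL_008317. The median ratio was 1.05 at 4 feedings, 2.10 at 6, 2.92 at 8 and 3.91 at 11. In log2 units these medians were 0.07, 1.07, 1.55 and 1.97, beside 0.05, 0.08, 0.15 and 0.42 over the 13941 contigs. The values at 6 and 8 feedings chose the contigs and are given as a description. The rule did not use the libraries at 11 feedings or the knock-down libraries at 4 feedings. It used the controls at 4 feedings only in the control condition. The contigs were chosen with earlier results of these data known, which limits how independent the values at 11 feedings are.

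**Figure D1:**
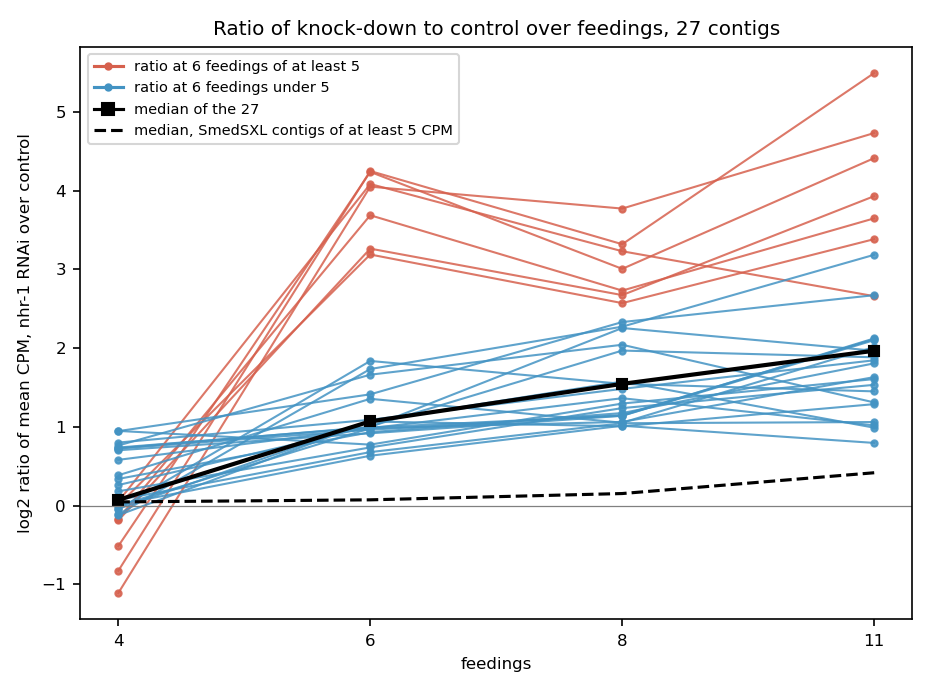
Log2 ratio of mean CPM, nhr-1 RNAi over control, of each of the 27 contigs (lines) against the number of feedings, with the median of the 27 (black squares) and of the 13941 contigs above the level (dashed). The 7 contigs with a ratio of at least 5 at 6 feedings (red) all lay at or below a ratio of 1.04 at 4 feedings and between 6.33 and 45.1 at 11 feedings.

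At the edges of the choice, SmedSXL_014547 was just inside the limit for 6 feedings with a ratio of 1.55, and SmedSXL_011120 just outside with 1.25. For 8 feedings SmedSXL_088958 was just inside with 2.01 and SmedSXL_017383 just outside with 1.93.

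A group of 7 contigs had a ratio of at least 5 at 6 feedings: SmedSXL_012259, SmedSXL_017607, SmedSXL_012989, SmedSXL_081505, SmedSXL_017761, SmedSXL_011354 and SmedSXL_001295. Their ratios were 9.13 to 19.0 at 6 feedings and 5.95 to 13.7 at 8, while the other 20 had 1.55 to 3.58 at 6 feedings and 2.01 to 5.04 at 8. At 4 feedings the ratios of the 7 were 0.464 to 1.04, and those of the other 20 were 0.920 to 1.93. Both arms moved between 4 and 8 feedings in these 7: the mean at 8 over that at 4 was 3.03 to 10.1 under nhr-1 RNAi and 0.315 to 0.601 in the controls. The split at 5 was made on values that the choice had used and carries no test.

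SmedSXL_017607 had the highest mean of the 27 under nhr-1 RNAi at 8 feedings, a ranking of CPM that does not account for length. At 4 feedings it stood at 749, 1063, 334 and 251 CPM in the knock-down libraries, against 926, 619, 1199 and 675 CPM in the controls. At 6 feedings it stood at 631, 4222, 990 and 2611 CPM in the knock-down libraries, against 106, 30.3 and 199 CPM in the 3 controls. The knock-down libraries differed several-fold among themselves there, with library s1 the highest. At 11 feedings it stood at 2950, 10245, 5529 and 4779 CPM in the knock-down libraries, against 145, 766, 92.8 and 98.2 CPM in the controls. The 2 groups overlapped at 4 feedings and were apart at 11, where the lowest knock-down library was still above the highest control.

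SmedSXL_012259 was also separated at 11 feedings, with a wider gap. Its level there was 2074, 9681, 4520 and 6423 CPM under nhr-1 RNAi, against 67.7, 315, 62.1 and 57.7 CPM in the controls. At 4 feedings it was 522, 661, 257 and 92.4 CPM under nhr-1 RNAi, against 1098, 277, 1114 and 231 CPM in the controls. Control s1 was well above the other controls at 11 feedings in both this contig and SmedSXL_017607, and it remained below every knock-down library.

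SmedSXL_012989 had the highest ratio at 8 feedings, 13.7, from 271, 818, 1048 and 2317 CPM under nhr-1 RNAi, against 8.92, 97.0, 34.3 and 185 CPM in the controls. At 11 feedings it stood at 364, 3115, 1067 and 2424 CPM in the knock-down libraries, against 8.54, 85.1, 125 and 43.0 CPM in the controls. Each group spread several-fold. The groups did not overlap at 11 feedings, and at 8 feedings the rule itself required this.

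SmedSXL_081505 differed from the other 6 at 11 feedings. It stood at 268, 1467, 708 and 815 CPM under nhr-1 RNAi, against 12.8, 51.8, 278 and 172 CPM in the controls. Knock-down library 1 fell inside the control range, and the highest controls were s2 and s3, the libraries in which SmedSXL_088910 took most counts. Knock-down library s2 at 4 feedings, also dominated by SmedSXL_088910, was the highest of its group, with 74.2, 153, 414 and 27.1 CPM, against 232, 74.8, 199 and 139 CPM in the controls.

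**Figure D2:**
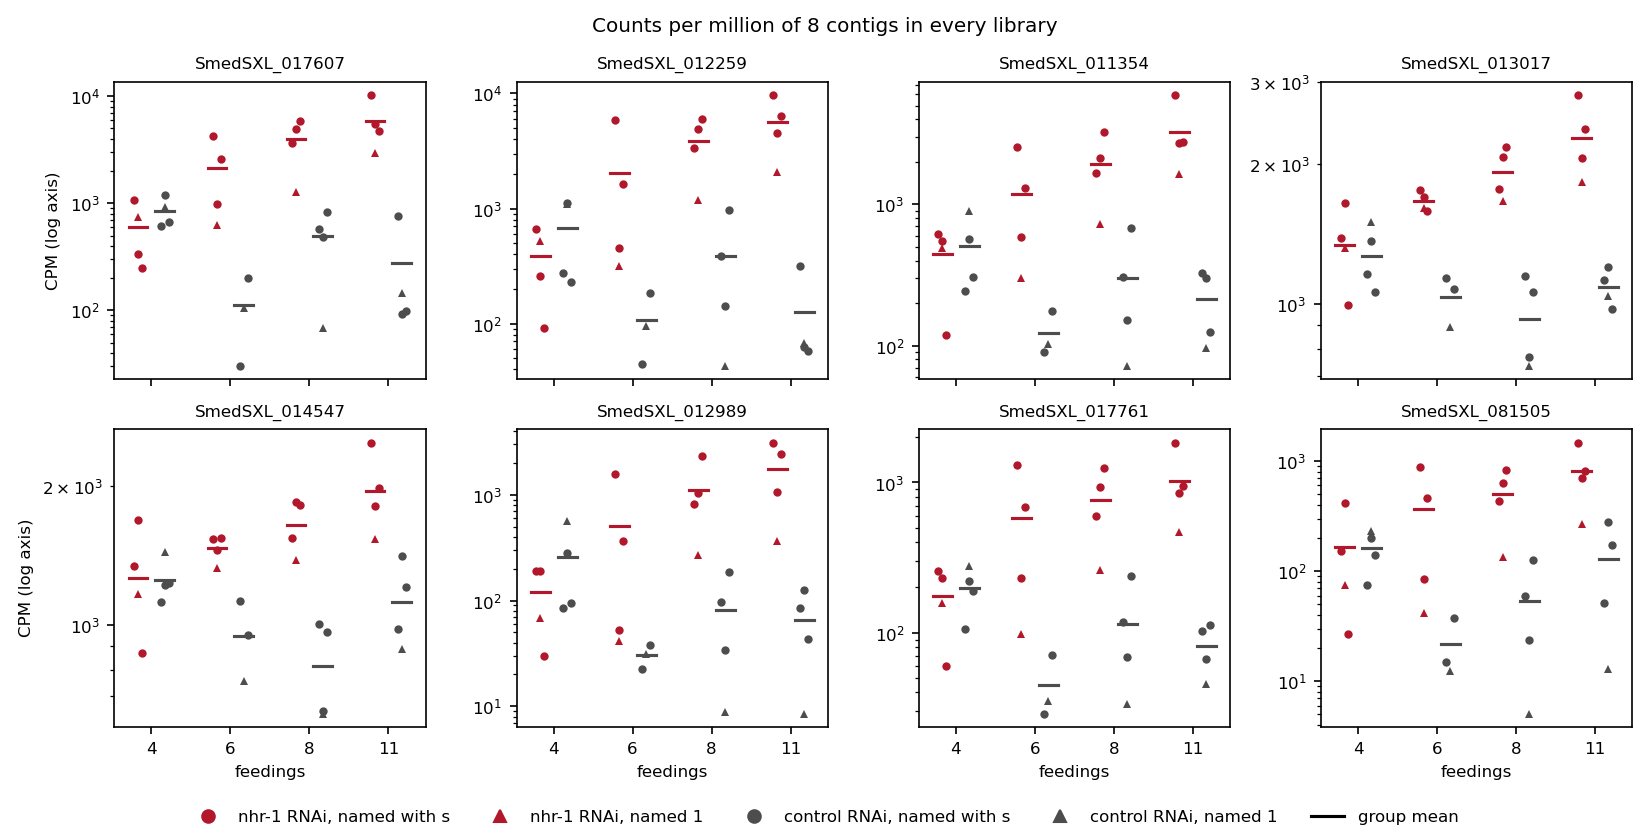
CPM (log axis, its range set for each panel) of 8 contigs in every library at 4, 6, 8 and 11 feedings, nhr-1 RNAi in red left of control RNAi in grey, with triangles for libraries named 1, circles for those named with s and bars for group means. At 11 feedings SmedSXL_017607 averaged 5876 ± 3108 CPM in the knock-down libraries and 275 ± 328 CPM in the controls, and SmedSXL_014547 averaged 1953 ± 399 CPM in the knock-down libraries and 1124 ± 237 CPM in the controls (SD, n = 4 each).

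The test at 11 feedings was edgeR's quasi-likelihood test with Benjamini-Hochberg adjustment over 40511 sequences of the whole table, on the 16 libraries at 4 and 11 feedings. All 27 contigs passed its filter on low counts. Of them 18 were higher under nhr-1 RNAi at an adjusted p under 0.05, and 0 were lower. The 18 include SmedSXL_017081, SmedSXL_017082 and SmedSXL_017083, which may be copies of the same transcript. Over all sequences tested, 1.24% were called higher and 15.8% lower. Among 13940 tested SmedSXL contigs above the level, 1.6% were called higher. All 27 estimates were above 0, with a median log2 fold change of 1.69, against a median of 0.07 over all sequences.

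Of the 7 strong contigs, 6 were called in edgeR at 11 feedings. SmedSXL_012259 was higher by a log2 fold change of 5.26 ± 0.81 (SE, adjusted p = 0.0003), SmedSXL_012989 by 4.24 ± 0.99 (adjusted p = 0.0067) and SmedSXL_017607 by 4.23 ± 0.67 (adjusted p = 0.0004). SmedSXL_011354 was higher by 3.53 ± 0.65 (adjusted p = 0.0012), SmedSXL_017761 by 3.22 ± 0.57 (adjusted p = 0.0009) and SmedSXL_001295 by 2.96 ± 0.61 (adjusted p = 0.0028). SmedSXL_081505 had an estimate of 2.04 ± 0.95 and missed the threshold (adjusted p = 0.148). Without the 3 libraries dominated by SmedSXL_088910 (controls s2 and s3 at 11 feedings, knock-down s2 at 4) its estimate was 4.61, with an adjusted p of 0.0034 in edgeR. That fit keeps controls 1 and s1 alone at 11 feedings, and the controls it leaves out were the highest for this contig. It called 318 of 43816 sequences higher.

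**Figure D3:**
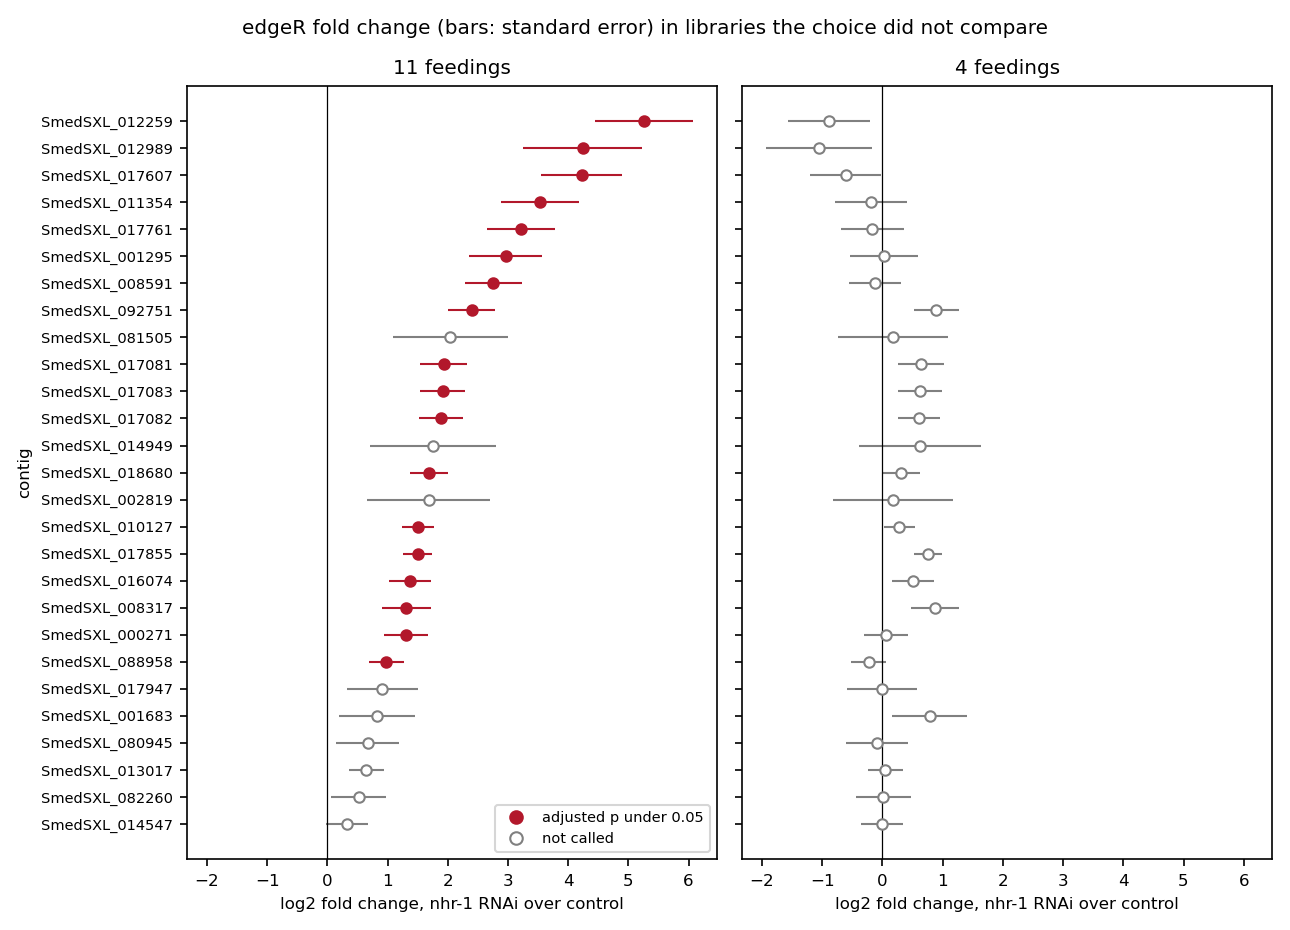
edgeR log2 fold change, nhr-1 RNAi over control, with its standard error for each of the 27 contigs at 11 feedings (left) and 4 feedings (right); filled points have an adjusted p under 0.05. At 11 feedings 18 contigs are filled and all 27 points lie right of 0, and at 4 feedings 0 are filled and 17 lie right of 0.

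Of the 20 contigs with lower ratios, 12 were called at 11 feedings, with log2 fold changes of 0.98 to 2.76. The following examples were named after their values were seen. SmedSXL_008591 had the largest estimate of the 12, 2.76 ± 0.47 (SE, edgeR adjusted p = 0.0006). It stood at 116, 308, 243 and 288 CPM under nhr-1 RNAi, against 23.4, 23.3, 33.3 and 24.5 CPM in the controls, so all 4 controls were alike and below every knock-down library.

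SmedSXL_017855 had the smallest spread of the called contigs as measured by the standard error of its estimate. At 11 feedings it stood at 125, 170, 150 and 159 CPM in the knock-down libraries, against 47.3, 51.9, 38.1 and 30.1 CPM in the controls, and its edgeR estimate was 1.498 ± 0.24 log2 units with an adjusted p of 0.0004. At 4 feedings it was also the 1 contig of the 27 whose groups did not overlap, at 101, 118, 131 and 136 CPM under nhr-1 RNAi, against 71.1, 73.6, 80.4 and 53.4 CPM in the controls. Its edgeR estimate there was 0.76 ± 0.23, with an unadjusted p of 0.0048 and an adjusted p of 0.765. Its mean at 8 feedings was 1.01 times that at 4 in the knock-down libraries and 0.628 times that at 4 in the controls, so the ratio widened between these times while the knock-down level hardly moved.

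SmedSXL_092751 and SmedSXL_018680 were also apart at 11 feedings. SmedSXL_092751 stood at 23.4, 39.5, 26.5 and 32.6 CPM in the knock-down libraries, against 7.07, 5.99, 2.91 and 2.81 CPM in the controls, with an edgeR estimate of 2.40 ± 0.39 log2 units (SE, adjusted p = 0.0005). SmedSXL_018680 stood at 81.2, 199.98, 113 and 171 CPM in the knock-down libraries, against 55.1, 29.8, 22.6 and 32.1 CPM in the controls, and its estimate was 1.69 ± 0.32 (adjusted p = 0.0013). Knock-down library 1 was the lowest of its group in both, and in both it was above every control.

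SmedSXL_017081 represents the 3 near-identical contigs. It stood at 629, 987, 648 and 929 CPM under nhr-1 RNAi at 11 feedings, against 419, 153, 79.8 and 79.9 CPM in the controls, and edgeR gave 1.93 ± 0.39 (SE, adjusted p = 0.0023). Controls s2 and s3 were the lowest and control 1 was the highest, the opposite of SmedSXL_081505. SmedSXL_000271 and SmedSXL_016074 had the same 2 controls lowest. So did, among contigs described here, SmedSXL_017607, SmedSXL_012259, SmedSXL_017855, SmedSXL_092751, SmedSXL_088958, SmedSXL_008317, SmedSXL_014949, SmedSXL_002819 and SmedSXL_080945. These 2 controls were the highest in SmedSXL_081505, SmedSXL_082260, SmedSXL_017947, SmedSXL_001683, SmedSXL_014547 and, by little, SmedSXL_008591. Without the 3 libraries dominated by SmedSXL_088910 the estimate of SmedSXL_017081 was 1.53 (edgeR adjusted p = 0.0130), and that of SmedSXL_016074 was 1.05 (adjusted p = 0.0491). What part the dominated libraries have in these values was not tested.

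SmedSXL_088958, the contig nearest the limit for 8 feedings, was called with the smallest estimate, 0.98 ± 0.29 (SE, edgeR adjusted p = 0.0302). It stood at 271, 409, 418 and 343 CPM under nhr-1 RNAi, against 158, 231, 121 and 79.6 CPM in the controls. The groups were apart by little. The call was lost with the replicate name as a block (adjusted p = 0.0854), without the 3 dominated libraries (0.0681), with no filter on low counts (0.164), in a fit of the 8 libraries at 11 feedings (0.0819), and without any 1 of knock-down s2 (0.0768), s3 (0.0870) or s4 (0.0543) or control s3 (0.0868), each number an edgeR adjusted p.

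The block also ended the calls of SmedSXL_018680 (edgeR adjusted p = 0.0776), SmedSXL_000271 (0.0960), SmedSXL_008317 (0.0986) and SmedSXL_016074 (0.109), and brought in SmedSXL_002819 (0.0391), for 14 called in all. By title, knock-down s4 and control s1 at 11 feedings have no partner, so the block takes them out of the RNAi effect there. SmedSXL_008317 was called under the fewest alternatives of the 18, in 18 of 27. At 15.2, 10.1, 11.4 and 14.8 CPM under nhr-1 RNAi, against 8.25, 2.996, 2.59 and 2.81 CPM in the controls, it lost its call without any 1 of 6 libraries at 11 feedings (knock-down 1, s3 or s4, control s1, s2 or s3; adjusted p of 0.0563 to 0.0872). SmedSXL_000271 lost its call without knock-down s3 (adjusted p = 0.0547).

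The 2 most abundant contigs of the weaker ones, SmedSXL_013017 and SmedSXL_014547, were not called. SmedSXL_013017 stood at 1830, 2812, 2058 and 2375 CPM in the knock-down libraries, against 1039, 1127, 1201 and 976 CPM in the controls, which did not overlap. Its edgeR estimate was 0.65 ± 0.30 (SE, adjusted p = 0.139). SmedSXL_014547 stood at 1535, 2484, 1810 and 1984 CPM in the knock-down libraries, against 887, 981, 1414 and 1212 CPM in the controls, also apart, and its estimate was 0.33 ± 0.35 (adjusted p = 0.484). The scaling of edgeR (TMM) differs here from CPM. Over all sequences tested, the median edgeR estimate at 11 feedings was 0.07 with TMM and 0.35 with the library sizes of the CPM. With the library sizes of the CPM in place of TMM, edgeR called both, SmedSXL_013017 with 1.06 (adjusted p = 0.0043) and SmedSXL_014547 with 0.80 (adjusted p = 0.0474). Both were also called in edgeR without the 3 dominated libraries, which leaves controls 1 and s1 at 11 feedings. The estimates were 1.06 for each, with adjusted p-values of 0.0132 for SmedSXL_013017 and 0.0178 for SmedSXL_014547.

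In CPM, every knock-down library was above every control at 11 feedings for 20 of the 27, beside 12% of the 13941 contigs. The 20 include the near-identical SmedSXL_017081, SmedSXL_017082 and SmedSXL_017083. The 7 that overlapped were SmedSXL_081505, SmedSXL_082260, SmedSXL_017947, SmedSXL_014949, SmedSXL_002819, SmedSXL_001683 and SmedSXL_080945. A ratio of at least 2 at 11 feedings was found for 25 of the 27 and 18.7% of the 13941, and the other 2 of the 27 were SmedSXL_014547 (1.74) and SmedSXL_080945 (1.99). 

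SmedSXL_082260, SmedSXL_017947 and SmedSXL_001683 shared with SmedSXL_081505 that controls s2 and s3 were the highest at 11 feedings. SmedSXL_082260 stood at 266, 530, 518 and 633 CPM under nhr-1 RNAi, against 192, 157, 292 and 318 CPM in the controls. SmedSXL_017947 stood at 90.1, 252, 148 and 159 CPM under nhr-1 RNAi, against 16.8, 47.9, 100.2 and 72.0 CPM in the controls. In each of these 3 contigs knock-down library 1 was the one inside the control range. Without the 3 dominated libraries edgeR gave 1.48 log2 units for SmedSXL_082260 (adjusted p = 0.0202), 2.29 for SmedSXL_017947 (adjusted p = 0.0073) and 2.29 for SmedSXL_001683 (adjusted p = 0.0198). These estimates rest on controls 1 and s1 alone at 11 feedings, with the highest controls of each contig left out. SmedSXL_080945, at 8.74, 3.24, 5.41 and 4.67 CPM under nhr-1 RNAi, against 3.83, 3.16, 1.94 and 1.97 CPM in the controls, was called under none of the 27 alternatives run.

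SmedSXL_014949 and SmedSXL_002819 overlapped in another way. SmedSXL_014949 stood at 46.5, 16.98, 18.8 and 23.8 CPM under nhr-1 RNAi, against 17.7, 4.99, 3.56 and 0.563 CPM in the controls, with library 1 the highest in both groups. SmedSXL_002819 had the same order of library 1, at 31.04, 12.8, 10.6 and 15.7 CPM under nhr-1 RNAi, against 13.8, 2.996, 1.29 and 0.563 CPM in the controls. In the libraries named with s alone edgeR called both higher, by 2.30 log2 units for SmedSXL_014949 (adjusted p = 0.0145) and 2.58 for SmedSXL_002819 (adjusted p = 0.0053). That fit called more sequences of any kind higher, 3803 of 39110, against 501 of 40511 in the main test. Over the 16 libraries at 4 and 11 feedings the log2 CPM of these 2 contigs correlated at r = 0.951, given as a description because the libraries share depth and treatment.

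**Figure D4:**
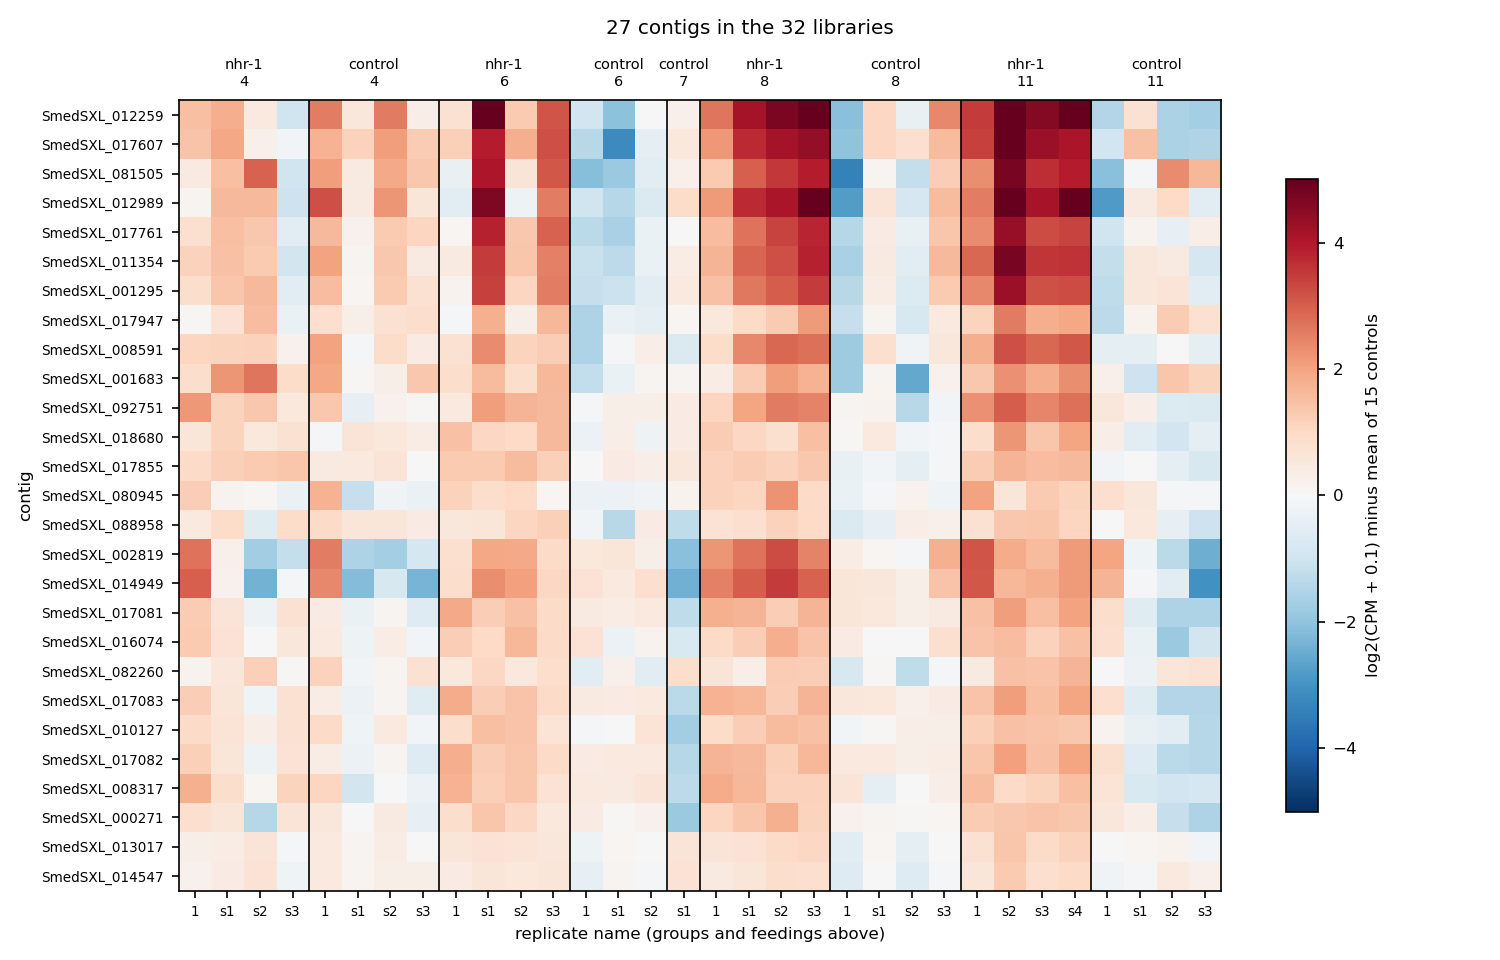
Log2(CPM + 0.1) of the 27 contigs (rows) in all 32 libraries (columns, by group and feedings) minus the mean of the 15 controls at 4, 6, 8 and 11 feedings, with colours that saturate at 5 log2 units. The 7 strong contigs form the dark red block under nhr-1 RNAi at 8 and 11 feedings, and knock-down library 1 is the palest of its group there.

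At 4 feedings edgeR called 0 of the 27 in either direction, and 3 had an unadjusted p under 0.05, all 3 higher (SmedSXL_017855, SmedSXL_092751 and SmedSXL_008317). Of all 40511 sequences, 792 had an unadjusted edgeR p under 0.05 in either direction. DESeq2 called 1, SmedSXL_017855. Over all sequences edgeR called 0% higher and 0.00494% lower at this time. The estimates of 17 of the 27 were above 0. In CPM the ratio was above 1 for 17 of the 27, beside 57.9% of the 13941 contigs, so the list was near that share. No overlap in CPM was found for 1 of the 27, beside 0.38% of the 13941 contigs. Few calls of any kind were made at 4 feedings, so a missed threshold there does not show equal levels.

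The difference between the times was tested as the RNAi effect at 11 feedings minus that at 4. All 27 differences were above 0, 16 had an unadjusted p under 0.05 and 6 passed the threshold in edgeR, all higher at 11 feedings. The median difference over all sequences was -0.005, and 6275 of 40511 had an unadjusted edgeR p under 0.05 in either direction. Over all sequences 0.0765% were called higher and 3.66% lower, and 0.0933% of the tested SmedSXL contigs above the level were called higher. The 6 were SmedSXL_012259, 6.14 ± 1.04 log2 units (SE, edgeR adjusted p = 0.0060), SmedSXL_012989, 5.30 ± 1.30 (0.0311), SmedSXL_017607, 4.83 ± 0.88 (0.0080), SmedSXL_011354, 3.72 ± 0.86 (0.0232), SmedSXL_017761, 3.39 ± 0.76 (0.0196) and SmedSXL_008591, 2.88 ± 0.64 (0.0182), each number in parentheses an adjusted p. Without knock-down library s2 at 11 feedings, the highest of its group in 19 of the 27 contigs, SmedSXL_012259 and SmedSXL_017607 were the 2 contigs called. With the replicate name as a block, SmedSXL_017761 (edgeR adjusted p = 0.0535) and SmedSXL_008591 (0.0511) missed the threshold and SmedSXL_001295 (0.0362) passed it. SmedSXL_012989 also missed it without any 1 of 7 other libraries, among them control s3 at 11 feedings (adjusted p = 0.0842), and SmedSXL_011354 without that control (0.0665) or control 1 at 4 feedings (0.0527).

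Library 1 of the knock-down was the lowest of its group in 20 of the 27 at 8 feedings and in 22 of the 27 at 11, in all 7 strong contigs both times. Against control library 1 alone, it was higher for 11 of the 27 at 4 feedings, beside 52.2% of the contigs above the level, and for all 27 at 11 feedings, beside 62.7%. The median ratio of the libraries named 1 at 11 feedings was 2.23. At 6 and 8 feedings the rule itself required library 1 to be above control library 1, so those times add nothing here. In the 3 libraries of each group named with s, the groups did not overlap for 27 of the 27 at 11 feedings, beside 37.4% of the 13941 contigs, and for 3 of the 27 at 4 feedings, beside 2.63%.

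Levels moved over time in both arms. The knock-down mean at 8 feedings was above that at 4 in 26 of the 27, and SmedSXL_001683 was the exception. The median of this change was 1.89 times for the 27 and 1.08 times for the contigs above the level. The knock-down mean was higher at 11 than at 8 feedings in 21 of the 27, a count that was not made over the contigs above the level. The control mean at 8 feedings was below that at 4 in 21 of the 27, beside 43.8% of the contigs above the level, with a median change of 0.640 times for the 27 and 1.08 times for the larger set. The rule used the means at 8 feedings and the control ratio, so these shares are a description.

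Across the 16 libraries at 4 and 11 feedings, the log2 CPM of the 7 strong contigs correlated with each other at r of 0.637 to 0.992 (median 0.915, 21 pairs). The other 330 pairs had a median of 0.692 and ran from 0.037 to 0.9998. Some weaker contigs followed the 7 as closely, such as SmedSXL_013017 with SmedSXL_011354 (r = 0.966) and SmedSXL_017947 with SmedSXL_081505 (r = 0.987). The libraries share depth, treatment and feeding number, so no test was made.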

How the data were processed

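The deposited table holds whole-number read counts for 177783 sequences in 32 libraries, used as the authors deposited them, per the file headers, with each sequence's length. The submitters' processing notes name Bowtie2 without its role; its version, the program that counted reads and whether strand was used were not stated in any source at hand. A row that names no sequence held 0 counts and was left out, and 0 columns were unmatched.

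Members and lists were chosen with earlier results of these data known. CPM was computed from the counts as described with the contigs. The test was edgeR 4.0.16 in R 4.3.3 (filterByExpr with a minimum count of 10 and a minimum total of 15, TMM, quasi-likelihood), on 16 libraries with 1 mean for each group, so that libraries the rule compared gave no spread. The filter kept 99.1% of counts. The standard error is the absolute log2 fold change over the square root of F. DESeq2 1.42.0 was an alternative. Scripts were tested on simulated data.

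Contigs were named by 3 fixed parts: the 5 of highest mean CPM under nhr-1 RNAi at 8 feedings, the 5 of highest ratio there with at least 20 CPM, and those beside the thresholds; others are said to be chosen later. By title, libraries of the same name deviated together at 11 feedings in all 3 pairs (r of 0.455 for library 1, 0.328 and 0.188), and at 4 feedings in library 1 (r of 0.482) but not in the other 3 (r of -0.05, -0.65 and -0.11). At 11 feedings 1 of the 3 knock-down libraries correlated best with the control of its own name, and at 4 feedings 0 did. Whether the names mark pairs at 11 feedings is therefore uncertain. The main test did not use them, and the block was run as an alternative. With the block the RNAi effect at 11 feedings rests on the 3 pairs, because knock-down s4 and control s1 have no partner by title. A call lost with the block can therefore come from the libraries left out as well as from pairing. The fit with the block holds it at both times, so its values at 4 feedings and in the difference between the times rest on numbers that did not pair at 4. No pair of libraries within a group was near-identical. Depth limits the precision of low contigs, and counting error is part of the spread.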

Additional observations from a re-analysis of the deposited data

Results flagged for a closer look

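SmedSXL_017607 stood at 766 CPM in control s1 at 11 feedings, far from the other 3 controls at 92.8 to 145 CPM. SmedSXL_012259 stood at 315 CPM in the same library, against 57.7 to 67.7 CPM in the other 3. The comparison was made in 63 groups of 4 libraries and marked these 2. Chance alone marks about 1 group in 20 for normally spread values, which CPM need not be, so 2 marks are not more than chance gives. Both marks are in the same library, and the 2 contigs correlated at r = 0.978 over the libraries at 4 and 11 feedings.

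The RNAi effect differed between 11 and 4 feedings, by edgeR's test of the difference, for SmedSXL_012259 (6.14 log2 units), SmedSXL_012989 (5.30), SmedSXL_017607 (4.83), SmedSXL_011354 (3.72), SmedSXL_017761 (3.39) and SmedSXL_008591 (2.88), all larger at 11 feedings.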

How the results depend on the processing

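Over the alternatives run, the number of contigs called higher at 11 feedings was 14 to 22 (18 in the main test), 15 to 18 when 1 library at a time was left out. Over all sequences the number called higher moved more, from 501 to 87 with the block and to 4222 without control 1 at 11 feedings. With the replicate block, 14 of the 27 were called: SmedSXL_088958, SmedSXL_018680, SmedSXL_000271, SmedSXL_008317 and SmedSXL_016074 were lost and SmedSXL_002819 gained. Under the block 0 were called at 4 feedings and 5 in the difference between the times, where SmedSXL_017761 and SmedSXL_008591 were lost and SmedSXL_001295 gained. The block takes knock-down s4 and control s1 at 11 feedings, which have no partner by title, out of the effect there. Of the 18, 13 were called under all 27 alternatives, the near-identical SmedSXL_017081, SmedSXL_017082 and SmedSXL_017083 among them. At 4 feedings DESeq2 called 1, and leaving out any 1 of the 16 libraries gave 0. For the difference between the times, all 31 libraries gave 11 and DESeq2 10, and leaving out libraries gave 2 to 9, the lowest without knock-down library s2 at 11 feedings. The median log2 ratio at 11 feedings (1.97) was 1.82 with TMM sizes and 2.57 in libraries named with s, and 1.72 to 2.32 without single libraries. No overlap at 4 feedings was found for 3 contigs in libraries named with s, beside 2.63% of the contigs above the level. The rule kept 58 contigs from libraries named with s, 23 of them among the 27. It kept 19 with the control labelled 7 feedings counted at 6, all among the 27, and 23 to 42 without single libraries, the most without control s2 at 6 feedings. Signs at 4 feedings turned where no contig was called. SmedSXL_014547 (-0.0027) was 0.10 with DESeq2 sizes and in DESeq2, 0.015 with the sizes of the rule, 0.057 without a filter, 0.061 with 8 libraries, 0.020 with 31, 0.087 in SmedSXL contigs alone and 0.22 in libraries named with s. SmedSXL_013017 (0.05) was -0.0046 with the block and -0.20 without the dominated libraries, and SmedSXL_081505 (0.18) was -0.54, -0.27 with a term for libraries named 1, and -1.03. In libraries named with s, SmedSXL_011354 (-0.19) was 0.36, SmedSXL_012989 (-1.05) 0.037 and SmedSXL_017761 (-0.17) 0.22. Without single libraries they ranged from -0.34 to 0.15 for SmedSXL_014547, -0.22 to 0.18 for SmedSXL_013017, -1.06 to 0.54 for SmedSXL_081505, -0.44 to 0.21 for SmedSXL_011354 and -0.47 to 0.12 for SmedSXL_017761. The cause was not tested.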

Other observations

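The control labelled 7 feedings lay within the range of the controls at 6 and 8 feedings for 12 of the 27 contigs, above it for 6 and below it for 9, and below every knock-down library of those times for 19. SmedSXL_013017 stood there at 1689 CPM and SmedSXL_014547 at 1664 CPM. SmedSXL_017081 stood at 94.4 CPM and SmedSXL_017607 at 399 CPM. The rule chose contigs that were high in the knock-down libraries at 6 and 8 feedings, and these counts were not made over the contigs above the level. They are a description of 1 library, and no test was made.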
